A study of Homo sapiens with 18 samples.

Results

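Cholesterol delivery to mitochondria is described here through 9 genes, STAR and 8 partners (SCARB1, NPC1, NPC2, STARD3, SOAT1, LIPE, TSPO and VDAC1), among 18417 genes measured. The members were chosen by name, from the route that cholesterol takes in a steroid-making cell, with earlier results of these data known. Each of the 9 was read by 1 probe set of its own. The values are log2 signals from human gene expression arrays hybridised with RNA of H295R cells, a cell line derived from an adrenocortical tumour. There were 2 stable lines, one carrying a pcDNA4 vector that encodes GRα, the hormone-binding form of the glucocorticoid receptor, and one carrying the same vector empty (control cells). Neither vector is inducible, and each was kept under Zeocin. Each line was starved of serum for 24 h and then given dexamethasone at 100 nM, RU486 at 100 nM or the ethanol vehicle for 6 h. The groups were GRα cells with dexamethasone (3 arrays), RU486 (2 arrays, the third sample having no values) and vehicle (3 arrays), and control cells with dexamethasone, RU486 and vehicle (3 arrays each). Dexamethasone is a synthetic glucocorticoid and RU486 (mifepristone) is a steroid that competes with it for the receptor. Each line is 1 stable line, so the receptor transgene and any other difference between the lines cannot be told apart. The labels call the arrays biological replicates without saying whether they came from separate cultures, so the tests measure the spread between these arrays, which may be partly technical.

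Steroid synthesis starts when cholesterol reaches the inner mitochondrial membrane, where the side-chain cleavage enzyme CYP11A1 converts it to pregnenolone. Cholesterol is taken up from lipoproteins by SCARB1 or by endocytosis, leaves late endosomes through NPC2 and NPC1, and is stored as esters that SOAT1 makes and hormone-sensitive lipase, the LIPE product, cleaves. STAR then moves it across the mitochondrial membranes, the step that limits acute steroid output in adrenal and gonadal cells.

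All arrays of a line resembled each other (r over all genes 0.987 to 0.997) more than those of the other line (0.971 to 0.977). NR3C1, the receptor gene, had log2 values of 7.90 to 7.98 in GRα cells with vehicle against 7.28 to 7.41 in control cells with vehicle, a difference of 0.59 ± 0.07 SE (limma adjusted p = 1.37e-06). GRα vehicle replicate B stood apart, and limma's array weights gave it 0.194, against 0.654 to 2.3 for the others. Called member values that moved by over 1.5 times without it, and calls that changed, are given both ways, as are selected values that were not called. Of 9 measured markers of adrenocortical cells, CYP11A1, CYP17A1, NR5A1, FDX1 and GATA6 had medians over both lines of 8.24 to 10.17. Those of HSD3B2 and INHA were 6.82 and 6.6. HSD3B2 ranged from 5.17 to 7.55 over all arrays. Its difference of GRα from control cells in vehicle was −1.59 ± 0.15 SE, so its pooled median describes neither line. The ACTH receptor gene MC2R and its partner MRAP had medians of 5.51 and 6.27, below the median of any array over all probe sets (6.28 to 6.35). Signals were not tested for detection above background.

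In vehicle, 5 of the 9 members were lower in GRα cells than in control cells and 1 was higher. SCARB1 was 2.02-fold, STAR 1.87-fold, LIPE 1.54-fold, NPC1 1.26-fold and NPC2 1.20-fold lower, and SOAT1 was 1.25-fold higher. A gene is called here when its limma p, adjusted by the Benjamini-Hochberg method over all 18417 genes, is under 0.05. The background is wide, since 33.4% of all genes were called in this comparison, 18.3% lower and 15% higher. The members' median difference was −0.26 log2, against 0.01 over all genes. STARD3 (adjusted p = 0.0518), TSPO and VDAC1 were not called. In 7 of the 9 members the arrays of the lines did not overlap in vehicle, as was so for 40.5% of all genes.

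**Figure D1:**
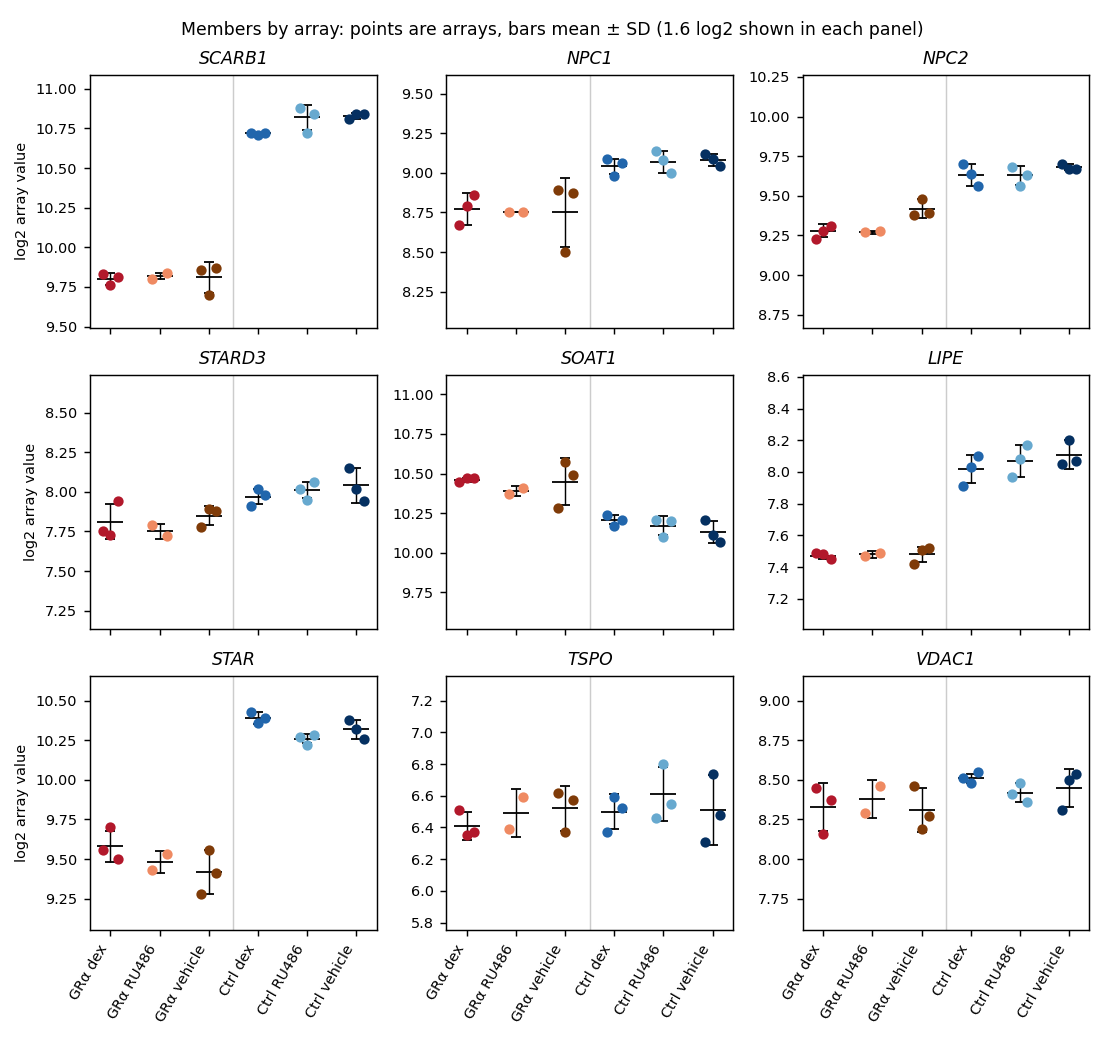
Log2 array value (vertical axis, 1.6 log2 in each panel) of each member in the 6 groups; points are arrays, and bars are the group mean ± SD. SCARB1, STAR and LIPE form 2 levels that follow the line, with GRα arrays at most 9.87, 9.70 and 7.52 and control arrays at least 10.71, 10.22 and 7.91, while TSPO overlaps throughout.

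SCARB1 encodes the scavenger receptor that takes cholesteryl esters from high-density lipoprotein. Its log2 values in GRα cells were 9.83, 9.76 and 9.81 with dexamethasone, 9.80 and 9.84 with RU486 and 9.86, 9.70 and 9.87 with vehicle. Control cells had 10.72, 10.71 and 10.72 with dexamethasone, 10.88, 10.72 and 10.84 with RU486 and 10.81, 10.84 and 10.84 with vehicle. The lines did not overlap in any treatment, and the 8 GRα arrays spanned only 0.17 log2. The difference between the lines was −0.91 ± 0.06 SE with dexamethasone, −1.0 ± 0.07 with RU486 and −1.01 ± 0.06 with vehicle (limma adjusted p = 2.79e-09, 5.75e-09 and 7.74e-10). It was the largest of the 9 members in each treatment with all arrays. Without GRα vehicle replicate B the vehicle difference was −0.96 ± 0.06, against −0.98 ± 0.07 for STAR. Ordered by group mean, control cells with vehicle (10.83), RU486 (10.82) and dexamethasone (10.72) were followed by GRα cells with RU486 (9.82), vehicle (9.81) and dexamethasone (9.80), and no pair of treatments within a line was called.

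NPC1 and NPC2 hand cholesterol out of late endosomes, NPC2 as a soluble carrier in the lumen and NPC1 as the membrane transporter that receives it. NPC1 stood at 8.67, 8.79 and 8.86 (dexamethasone), 8.75 and 8.75 (RU486) and 8.89, 8.5 and 8.87 (vehicle) in GRα cells. In control cells it stood at 9.09, 8.98 and 9.06 (dexamethasone), 9.14, 9.08 and 9.0 (RU486) and 9.12, 9.09 and 9.04 (vehicle). Every GRα array lay below every control array, and the lowest was GRα vehicle replicate B. The difference was −0.27 ± 0.09 SE with dexamethasone, −0.33 ± 0.10 with RU486 and −0.33 ± 0.09 with vehicle (limma adjusted p = 0.0232, 0.0168 and 0.00707). In vehicle it was −0.20 ± 0.06 without replicate B (adjusted p = 0.0247), and with only the vehicle groups fitted the adjusted p was 0.0514. With dexamethasone the call was lost without GRα replicate A (limma adjusted p = 0.104) or control replicate A (0.0762) or C (0.0615). With RU486 it was lost without GRα replicate B (0.084) or C (0.0828) or control replicate A (0.0608).

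NPC2 had values of 9.23, 9.28 and 9.31 with dexamethasone, 9.27 and 9.28 with RU486 and 9.38, 9.48 and 9.39 with vehicle in GRα cells. The control arrays gave 9.70, 9.64 and 9.56 with dexamethasone, 9.68, 9.56 and 9.63 with RU486 and 9.70, 9.67 and 9.67 with vehicle. The lines were again apart in every treatment, and within GRα cells the vehicle arrays were the highest. The difference was −0.35 ± 0.06 SE with dexamethasone, −0.35 ± 0.07 with RU486 and −0.26 ± 0.06 with vehicle (limma adjusted p = 0.000115, 0.000451 and 0.00192). The vehicle value was −0.29 ± 0.06 without GRα vehicle replicate B, and each call held without each array in turn.

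STARD3 is a membrane protein of late endosomes whose START domain, a lipid-binding fold, is related to that of STAR. Its values in GRα cells were 7.75, 7.73 and 7.94 with dexamethasone, 7.79 and 7.72 with RU486 and 7.78, 7.89 and 7.88 with vehicle, against 7.91, 8.02 and 7.98, 8.02, 7.95 and 8.06, and 8.15, 8.02 and 7.94 in control cells with the same treatments. The arrays overlapped with dexamethasone only. The difference was −0.16 ± 0.07 SE with dexamethasone, −0.25 ± 0.08 with RU486 and −0.19 ± 0.07 with vehicle (limma adjusted p = 0.091, 0.023 and 0.0518). The RU486 call held without control replicate B and was lost without each other array of that comparison (adjusted p 0.0586 to 0.163). With dexamethasone STARD3 was called without GRα replicate C (0.0265) and with array weights (0.0248). In vehicle, STARD3 passed the threshold without GRα vehicle replicate B (−0.21 ± 0.08, adjusted p = 0.0497), without control vehicle replicate C (0.0315), without GRα dexamethasone replicate C (0.0371), without the dimmest 25% of genes (0.0359) and with the trend and robust options of limma (0.0398).

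SOAT1, the enzyme that esterifies cholesterol at the endoplasmic reticulum for storage in lipid droplets, was the only member called higher in GRα cells. It had 10.45, 10.47 and 10.47 with dexamethasone, 10.37 and 10.41 with RU486 and 10.28, 10.57 and 10.49 with vehicle in GRα cells. Control cells had 10.24, 10.17 and 10.21 with dexamethasone, 10.21, 10.10 and 10.20 with RU486 and 10.21, 10.11 and 10.07 with vehicle. Each GRα array exceeded each control array, with the closest pair at 10.28 and 10.24. The difference was 0.26 ± 0.07 SE with dexamethasone, 0.23 ± 0.08 with RU486 and 0.32 ± 0.07 with vehicle (limma adjusted p = 0.00816, 0.0364 and 0.0016). In vehicle it was 0.26 ± 0.07 without replicate B (0.00668). With RU486 the call held in none of 5 fits without a single array (limma adjusted p 0.0522 to 0.184) and was lost with the replicate letter as a block (0.0636).

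LIPE encodes hormone-sensitive lipase, which releases free cholesterol from stored esters in steroid-making cells and fatty acids in adipocytes. It stood at 7.49, 7.48 and 7.45 (dexamethasone), 7.47 and 7.49 (RU486) and 7.42, 7.51 and 7.52 (vehicle) in GRα cells. Control cells had 7.91, 8.03 and 8.10 (dexamethasone), 7.97, 8.08 and 8.17 (RU486) and 8.05, 8.20 and 8.07 (vehicle). The 8 GRα arrays spanned 0.10 log2 and the 9 control arrays 0.29, without overlap. The difference was −0.54 ± 0.07 SE with dexamethasone, −0.60 ± 0.08 with RU486 and −0.62 ± 0.07 with vehicle (limma adjusted p = 5.36e-06, 8.67e-06 and 1.13e-06), and each call held without each array in turn. Of this pair of ester genes, the RNA signal of SOAT1 was thus higher and that of LIPE lower in GRα cells. Ester synthesis and cleavage were not measured.

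Promoter sequences were available for 7 of the 9 members. STAR and SCARB1 had no promoter window, so neither was searched for the motifs below. The 3 shown are those of members with 1 annotated start, and they cover both directions of the line difference, SOAT1 higher and NPC1 lower in GRα cells, with STARD3 called lower with RU486 and in the mean over treatments only. They are the 250 bases before the start, from RefSeq on GRCh38.p14, at chr1:179293547-179293796 on the plus strand (SOAT1), chr18:23586507-23586756 on the minus strand (NPC1) and chr17:39636894-39637143 on the plus strand (STARD3). Capitals mark GGGCGG, the box bound by Sp1, and CCAAT, each on either strand.
SOAT1: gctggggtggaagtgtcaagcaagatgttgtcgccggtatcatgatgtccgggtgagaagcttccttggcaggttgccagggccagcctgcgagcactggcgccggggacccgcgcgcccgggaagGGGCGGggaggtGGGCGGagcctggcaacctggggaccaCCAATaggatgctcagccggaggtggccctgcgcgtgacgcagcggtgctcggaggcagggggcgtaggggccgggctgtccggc
NPC1: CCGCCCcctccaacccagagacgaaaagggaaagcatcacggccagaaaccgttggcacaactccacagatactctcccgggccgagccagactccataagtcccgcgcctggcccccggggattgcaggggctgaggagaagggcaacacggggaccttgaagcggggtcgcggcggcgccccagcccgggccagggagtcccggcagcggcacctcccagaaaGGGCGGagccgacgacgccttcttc
STARD3: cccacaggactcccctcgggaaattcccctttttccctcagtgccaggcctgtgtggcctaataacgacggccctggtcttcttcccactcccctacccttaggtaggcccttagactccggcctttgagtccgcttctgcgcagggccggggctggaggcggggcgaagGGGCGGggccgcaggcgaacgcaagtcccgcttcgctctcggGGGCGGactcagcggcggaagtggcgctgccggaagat
All 3 hold 2 Sp1 boxes, and SOAT1 also holds 1 CCAAT box. Over the 14 start windows of the 7 members, GGGCGG was found in 12 and CCAAT in 5, against 42.6% and 32.0% of 35093 promoter windows of the same length. Several windows of 1 gene overlap, so they are not independent. No member window held TCACNCCAC, the core of a sterol regulatory element (0.883% of all windows), AAGGTCA, the half-site of steroidogenic factor 1 (3.44%), the palindromic glucocorticoid response element (0.328%), or AGAACA, its half-site, which overlaps with it (12.4%). Both strands were searched, and a match is a string of letters, not a measured binding site.

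STAR, which carries cholesterol from the outer to the inner mitochondrial membrane, had log2 values of 9.56, 9.70 and 9.50 with dexamethasone, 9.43 and 9.53 with RU486 and 9.28, 9.56 and 9.41 with vehicle in GRα cells. In control cells the values were 10.43, 10.36 and 10.39 with dexamethasone, 10.27, 10.22 and 10.28 with RU486 and 10.38, 10.32 and 10.26 with vehicle. Every GRα array lay below every control array, with the closest pair at 9.70 and 10.22. The difference between the lines was −0.81 ± 0.07 SE with dexamethasone (1.75-fold lower), −0.78 ± 0.08 with RU486 (1.72-fold lower) and −0.91 ± 0.07 with vehicle (limma adjusted p = 1.23e-07, 9.70e-07 and 3.12e-08). In vehicle it was −0.98 ± 0.07 without GRα vehicle replicate B, and each call held without each array in turn. By group mean, control cells with dexamethasone (10.39), vehicle (10.32) and RU486 (10.26) came first, then GRα cells with dexamethasone (9.58), RU486 (9.48) and vehicle (9.42). No pair of treatments within a line was called.

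TSPO and VDAC1 are proteins of the outer mitochondrial membrane, TSPO a small cholesterol-binding protein and VDAC1 the main anion channel. TSPO ranged from 6.35 to 6.62 over the 8 GRα arrays (median 6.45) and from 6.31 to 6.80 over the 9 control arrays (median 6.52). VDAC1 ranged from 8.16 to 8.46 in GRα cells (median 8.33) and from 8.31 to 8.55 in control cells (median 8.48). Neither gene separated the lines over all arrays, though the VDAC1 arrays did not overlap with dexamethasone. The 95% confidence interval of the line difference in vehicle ran from −0.22 to 0.24 for TSPO and from −0.33 to 0.04 for VDAC1. A change in signal as large as that of STAR lies outside both. TSPO signals lay near the array medians over all probe sets (6.28 to 6.35) and were not tested for detection, so the TSPO interval speaks for the signal only. The difference was 0.01 ± 0.11 SE for TSPO and −0.14 ± 0.09 for VDAC1, and 0.09 ± 0.12 and −0.08 ± 0.09 without GRα vehicle replicate B.

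**Figure D2:**
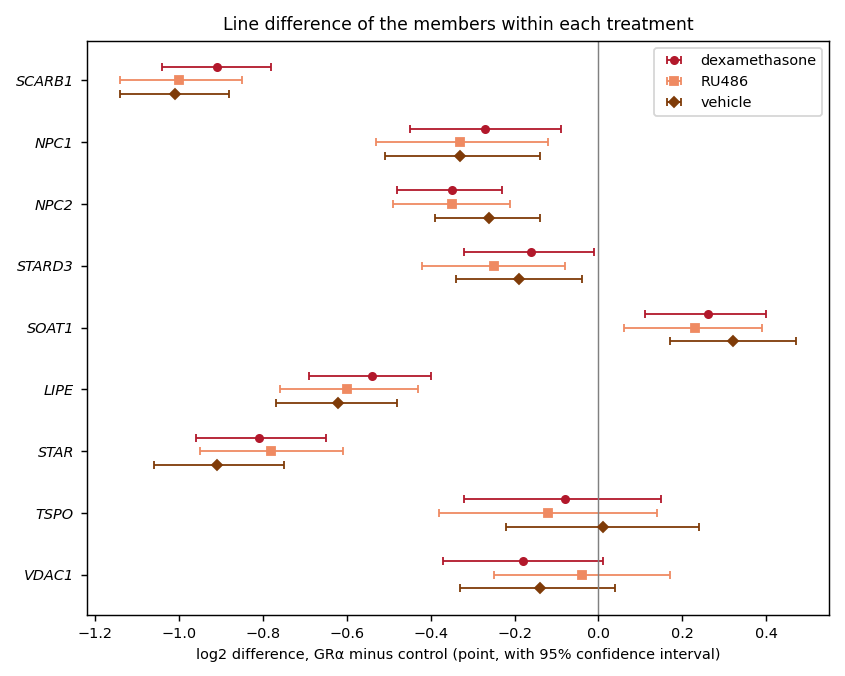
Log2 difference of GRα minus control cells (horizontal axis) for each member within dexamethasone, RU486 and vehicle; points are limma estimates and bars 95% confidence intervals. SCARB1, STAR and LIPE lie left of 0 in all 3 treatments (−1.01 to −0.54), SOAT1 lies right of 0 (0.23 to 0.32), and the intervals of TSPO and VDAC1 include 0.

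The pattern by line recurred in the other treatments. With dexamethasone 5 members were lower and 1 higher, where 33.3% of all genes were called (17.6% lower, 15.7% higher). With RU486 6 were lower and 1 higher, where 29.2% were called (16.2% lower, 13.1% higher). The arrays of the lines did not overlap for 7 of the 9 members in each of these treatments, as was so for 45.6% of all genes with dexamethasone and 54.8% with RU486. The members' median difference was −0.27 with dexamethasone and −0.33 with RU486, against −0.02 and −0.01 over all genes. A mean of the line difference over the 3 treatments, added after the data were seen, gave 6 members lower and 1 higher, where 47.7% of all genes were called (26.2% lower, 21.6% higher). In that mean STARD3 was 1.15-fold lower (−0.20 ± 0.04 SE, limma adjusted p = 0.000716) and VDAC1 was not called (−0.12 ± 0.05, adjusted p = 0.0709). In 6 of the 9 members all 8 GRα arrays lay on one side of all 9 control arrays, as was so for 22.4% of all genes.

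Dexamethasone against vehicle asks whether the agonist changes these RNAs within 6 h. In GRα cells 0 of 9 members were called by limma, where 2.02% of all genes were, and 2 had an unadjusted p under 0.05, as had 15.3% of all genes. STAR averaged 9.58 ± 0.10 with dexamethasone and 9.42 ± 0.14 with vehicle (SD, n = 3 each), a difference of 0.17 ± 0.07 SE (limma adjusted p = 0.291) with overlapping arrays. Without GRα vehicle replicate B the difference was 0.24 ± 0.07 (adjusted p = 0.113). NPC2 averaged 9.28 ± 0.04 and 9.42 ± 0.06 (SD, n = 3 each), a difference of −0.14 ± 0.06 SE (limma adjusted p = 0.267) with no overlap, as was so for 15.8% of all genes. Without replicate B it was −0.11 ± 0.06. The other 7 members had differences between −0.11 and 0.03, and between −0.18 (TSPO) and 0.08 (SOAT1) without replicate B, where NPC1 was −0.11 ± 0.06, against 0.02 ± 0.09 with it.

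In control cells 0 of 9 members were called with dexamethasone by limma, against 0.261% of all genes, and none had an unadjusted p under 0.05, as had 4.91% of genes. STAR averaged 10.39 ± 0.04 with dexamethasone and 10.32 ± 0.06 with vehicle (SD, n = 3 each), a difference of 0.07 with a 95% interval of −0.09 to 0.23. SCARB1 was 10.72 ± 0.01 with dexamethasone and 10.83 ± 0.02 with vehicle (SD, n = 3 each). These arrays did not overlap, as in 12.7% of all genes, and the difference was −0.11 ± 0.06 SE (limma adjusted p = 1). The difference between the lines in the dexamethasone effect was called for 0 members by limma, with 0.0652% of all genes called and no member at an unadjusted p under 0.05, where 7.39% of genes were. It was 0.10 ± 0.10 SE for STAR and 0.10 ± 0.09 for SCARB1, and 0.17 ± 0.09 and 0.05 ± 0.07 without GRα vehicle replicate B. With all arrays the intervals of the 9 members lay between −0.42 and 0.32.

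RU486 against vehicle gave 0 calls among the members by limma, and 0 (0%) among all genes in either line. With an unadjusted p under 0.05 stood 1 of 9 members in GRα cells and 0 in control cells, against 8.54% and 3.37% of all genes. The 1 member was NPC2 in GRα cells (9.27 against 9.42, difference −0.14 ± 0.07 SE, limma adjusted p = 0.577), with no overlap of the arrays, as in 20.4% of all genes. It was −0.11 ± 0.06 without GRα vehicle replicate B. This comparison and that of dexamethasone share the GRα vehicle arrays. The difference for STAR was 0.06 ± 0.08 SE in GRα cells and −0.07 ± 0.07 in control cells, and for SCARB1 0.01 ± 0.07 and −0.01 ± 0.06. Without GRα vehicle replicate B the GRα values were 0.13 ± 0.08 for STAR, −0.05 ± 0.06 for SCARB1 and −0.13 ± 0.07 for NPC1, with no member called. The line difference in the RU486 effect had 0 calls among members and among all genes (0%) by limma, with 4.05% of genes and no member at an unadjusted p under 0.05.

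The steroids dexamethasone and RU486 were then set against each other at the same dose and time. No member differed by limma in GRα cells, where 0.896% of all genes did, or in control cells, where 0.364% did, and none had an unadjusted p under 0.05, as had 8.85% and 5.98% of all genes. The difference for STAR was 0.11 (95% interval −0.07 to 0.28) in GRα cells and 0.14 (−0.02 to 0.29) in control cells. In control cells its arrays did not overlap between the ligands (10.36 to 10.43 with dexamethasone and 10.22 to 10.28 with RU486), as in 14.4% of all genes. In GRα cells the arrays of SOAT1 did not overlap (10.45 to 10.47 with dexamethasone and 10.37 to 10.41 with RU486), as in 26.9% of all genes. The intervals of all 9 members lay between −0.34 and 0.28 in GRα cells and between −0.35 and 0.29 in control cells. Smaller differences between the ligands could not be resolved with 2 or 3 arrays a group.

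**Figure D3:**
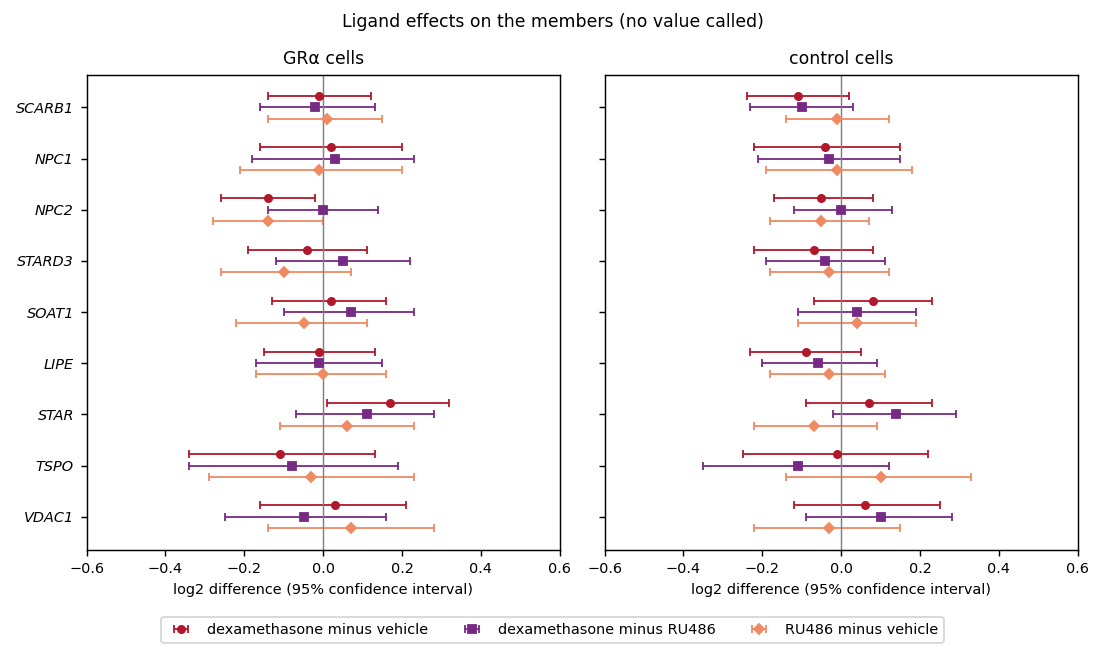
Log2 difference (horizontal axis) of dexamethasone minus vehicle, dexamethasone minus RU486 and RU486 minus vehicle for each member, in GRα cells (left) and control cells (right); bars are 95% confidence intervals. No value was called, and of the dexamethasone effects in GRα cells only STAR (0.17) and NPC2 (−0.14) have intervals that leave out 0.

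Within the lines, STAR varied over 0.42 log2 among GRα arrays and 0.21 among control arrays. After the mean of each line was subtracted, the genes whose values followed STAR most closely over the 17 arrays were POP5 (r = 0.88), C2orf76 (0.86), CNN3 (0.86), TIMM17A (0.84) and UBE2T (0.84). Without GRα vehicle replicate B these values were 0.91, 0.86, 0.89, 0.91 and 0.84. For SCARB1 they were DAAM2 (0.83), PARP12 (0.83), NHSL1 (0.81), MKLN1 (0.80) and SDK2 (0.80), and 0.75 to 0.78 without that array. Among the members themselves, STAR followed SOAT1 (r = 0.65, and 0.65 without that array) and ran against TSPO (−0.54) and SCARB1 (−0.51). These are descriptions over 17 arrays that share line, treatment and hybridisation, and the SD of line-centred values was only 0.10 for STAR and 0.06 for SCARB1. It was 0.06 for CNN3 and 0.03 for MKLN1. The genes named beside STAR and SCARB1 were picked for the highest r among 18417 genes, which by itself favours high values.

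Other genes of the route were read from lists, whose counts stand beside 18.3% of all genes called lower and 15% called higher in vehicle. Of the listed genes named below as called between the lines in vehicle, CES1, CIDEB, AKAP1, RAB7A, SREBF2 and NR5A1 were not called with RU486. The others were called there too, in the same direction. Among the carriers that move sterol between membranes, 3 of 12 were lower and 4 higher in GRα cells with vehicle (median 0.05, against 0.01 over all genes). GRAMD1C and GRAMD1B, which encode Aster proteins that carry cholesterol from the plasma membrane to the endoplasmic reticulum, were 2.90-fold and 1.95-fold lower, and STARD3NL, which lacks the START domain of STARD3, was 1.94-fold higher (limma adjusted p = 5.42e-09, 9.95e-09 and 5.50e-09). GRAMD1B was called higher with dexamethasone than with vehicle in GRα cells (0.41 ± 0.07 SE, limma adjusted p = 0.00345). In control cells its difference was 0.31 ± 0.07 SE and was not called (limma adjusted p = 0.116).

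Of 8 measured genes of uptake and efflux, 4 were lower and 0 higher by limma in GRα cells with vehicle, with a median of −0.25, and 4 and 2 without GRα vehicle replicate B. CD36, a scavenger receptor like SCARB1, was 3.81-fold lower, the cholesterol exporter gene ABCA1 1.35-fold and MYLIP, which directs degradation of the LDL receptor, 1.29-fold lower. Of 11 genes of the ester store and lipid droplet, 4 were lower and 1 higher (median 0.01). PLIN3, a droplet coat protein gene, fell by 0.57 ± 0.08 SE on the log2 scale and CIDEB by 0.43 ± 0.11, while CES1 was 0.41 ± 0.12 higher, a call lost without GRα vehicle replicate B (limma adjusted p = 0.0602) or control vehicle replicate C (0.0591). The other genes of this list called lower, NCEH1 and LIPA, were 1.31-fold and 1.24-fold lower.

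Of 11 genes for outer membrane partners and carriers of mitochondria, 4 were lower and 0 higher by limma with vehicle (median −0.08). DBI, whose product binds TSPO, was 1.30-fold, SLC25A5 1.24-fold and AKAP1 1.20-fold lower. Of 5 genes of the late endosome, LAMP1 (1.27-fold) and RAB7A (1.16-fold) were lower, the second not without control vehicle replicate A (limma adjusted p = 0.0596) or with the mean of its probe sets (0.211). Among 4 genes for the steps after delivery, HSD3B2 was 3.0-fold lower, FDX1, the electron donor of CYP11A1, was 1.16-fold lower in a call lost without GRα vehicle replicate B or any 1 control vehicle array (limma adjusted p 0.0531 to 0.0891), and CYP11A1 (0.09 ± 0.08 SE) was not called.

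Of 11 genes for factors known to act on the STAR promoter, 5 were lower and 2 higher in GRα cells with vehicle (median −0.02). SREBF1 was 1.59-fold, GATA6 1.46-fold and SREBF2 1.40-fold lower, and NR4A1 was 1.35-fold higher. NR5A1, which encodes steroidogenic factor 1, was 1.31-fold lower in GRα cells with vehicle, but was not called between the lines with dexamethasone (−0.07 ± 0.08 SE) or RU486 (−0.01 ± 0.09). With dexamethasone it was 1.58-fold higher than with vehicle in GRα cells (0.66 ± 0.08 SE, limma adjusted p = 9.33e-05), and GATA6 was 1.25-fold lower there (limma adjusted p = 0.0153), a call lost without GRα dexamethasone replicate B (0.0986) or GRα vehicle replicate A (0.0544). In control cells the NR5A1 difference of dexamethasone from vehicle was 0.34 ± 0.08 (limma adjusted p = 0.116), and that from RU486 0.51 ± 0.08 (limma adjusted p = 0.00524). Against RU486 in GRα cells, NR5A1 was also called higher with dexamethasone (0.45 ± 0.09, limma adjusted p = 0.0176). GATA6 was called lower there (−0.35 ± 0.08, limma adjusted p = 0.0332). STAR and the other members had no call in these comparisons. Of the 62 related genes measured, 3 were called by limma besides NR5A1 with dexamethasone against vehicle in GRα cells (GRAMD1B, SOAT2 and GATA6). In control cells 2 were called (CES1 and FDX1). The shares of all genes were 2.02% and 0.261%. CES1 and FDX1 were higher with dexamethasone in control cells (0.61 ± 0.12 SE and 0.38 ± 0.07, limma adjusted p = 0.033 and 0.0208).

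**Figure D4:**
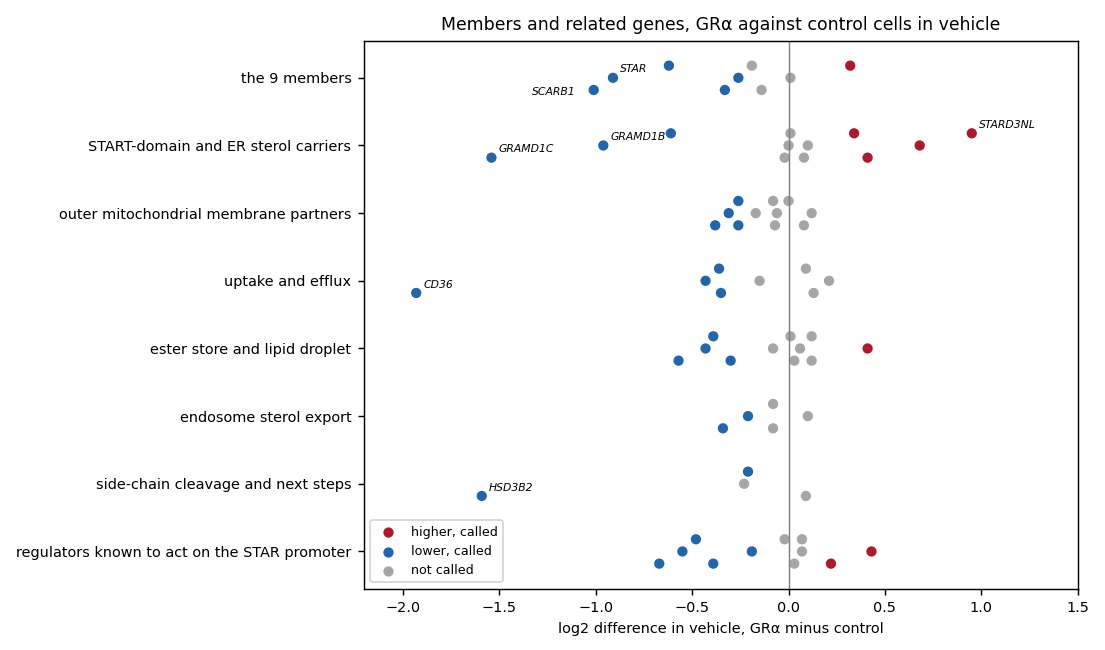
Log2 difference of GRα minus control cells with vehicle (horizontal axis) for the 9 members and the related genes of each list; each point is a gene, red if called higher, blue if called lower and grey if not called. CD36 (−1.93), HSD3B2 (−1.59) and GRAMD1C (−1.54) lie farthest left, and STARD3NL (0.95) farthest right.

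Markers of other cell types were read beside the line difference, where 33.4% of all genes were called. Of 6 chromaffin markers, CHGB (7.75-fold) and CHGA (1.45-fold) were higher in GRα cells with vehicle, and the mean of the list ranged from 6.24 to 6.47 over GRα arrays and from 5.66 to 5.76 over control arrays. TH and DBH, which define catecholamine-making cells, were not called (0.13 ± 0.11 SE and 0.07 ± 0.09). PNMT (0.15 ± 0.07) and SLC18A1 (0.09 ± 0.08) were not called either. The list mean includes CHGB, whose difference was 2.95 ± 0.09, so it does not show a shift of the whole list. Of 9 adrenocortical markers 5 were lower and 1 higher, and 3 and 1 without GRα vehicle replicate B, with list means of 7.48 to 7.67 in GRα arrays and 7.73 to 7.98 in control arrays. Of 6 fibroblast markers 1 was higher (COL1A1), with list means of 5.33 to 5.68 in GRα arrays and 5.32 to 5.45 in control arrays. Of 4 endothelial markers 2 were higher, and 1 without that array (5.15 to 5.36 and 5.03 to 5.29). Of 4 leukocyte markers 0 were called by limma and 1 had an unadjusted p under 0.05 (5.21 to 5.46 and 5.29 to 5.47). In bulk RNA, fewer cells of a type and less RNA per cell cannot be told apart. The part of these differences in the members' values was not tested.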

How the data were processed

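RNA of 18 samples was described and 17 arrays had values; the column of the third GRα RU486 sample is empty. The deposited values are log2 signals that the authors made with RMA, per the submitters' processing notes, which also name limma. RMA as a method corrects background, quantile-normalizes and summarises probes. No build is given in the sources used here. Of 29153 probe sets, 19460 carried 1 gene symbol, 1754 several and 7939 none. Symbols came from the platform annotation and were updated by Entrez number for 19429. A gene was its brightest probe set of 1 symbol, which left 18417 genes. limma 3.58.1 in R 4.3.3 fitted 6 group means to all arrays, with lmFit and eBayes, and p was adjusted over all genes by the Benjamini-Hochberg method. The number of arrays limits the precision. Quantile normalization can hide shifts shared by all genes. The 9 members, the related gene lists and the markers were chosen with earlier results of these data known. All members were named, and of each related list up to 3 called genes with the largest differences. NCEH1, LIPA, NR4A1, NR5A1 and CYP11A1 were named after their values were seen. Listed genes without a probe set of 1 symbol were not analysed here. Genes most like STAR and SCARB1 had the highest r over line-centred arrays. The model was run on simulated data with independent genes, no line difference and no array of low weight. That run checks the code and not the results given here. Alternatives were a further quantile step, median centring, dim genes left out, limma's trend and robust options, array weights, the mean of a gene's probe sets, only the groups compared, a replicate block, a stricter threshold and each array left out.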

Additional observations from a re-analysis of the deposited data

How the results depend on the processing

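The number of members called between the lines was 5 to 7 in vehicle, 5 to 7 with dexamethasone and 4 to 7 with RU486 over all alternatives, against 6, 6 and 7. With RU486 it was 4 at an adjusted p under 0.01 and ranged from 4 to 7 when each array was left out. With the replicate letter as a block, the limma fit called 6, 6 and 6 members in vehicle, dexamethasone and RU486. The letters were not taken as pairs, because the labels tie them to nothing shared and correlations of same-letter arrays ran from −0.092 to 0.324. Of 16 pairs 5 were over 0.1, 4 of them among control A and B arrays, all 6 of whose pairs were positive. No member's difference between the lines or ligands that was called turned its sign under any alternative run, and 0 of 9 members were called by limma in the ligand comparisons under all of them. RAB7A with dexamethasone was 0.073 higher in GRα cells (limma adjusted p = 0.646) with the mean of its probe sets, against −0.23 with the brightest; the cause was not tested. Leaving out GRα vehicle replicate B and the mean over treatments were chosen after seeing the data. With 2 or 3 arrays a group and 1 stable line each, small ligand effects could not be resolved and line cannot be told apart from receptor.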
